A study of Loxodonta africana with 12 samples.

Results

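A set of 10 genes is described across blood cells of the African elephant (Loxodonta africana). They are FAM129C, PIK3C2B, AMOTL1, RAPGEF3, ABCB4, MAST4, DSEL, SYBU, CDH5 and the unnamed Ensembl gene ENSLAFG00000016250, out of 16406 rows in all. They were selected on their levels at 24 h, which were much lower in irradiated than in untreated cells, and on not being standard markers of B cells. Their 24 h values are therefore a description with no test. By that stated reason the 5 h libraries did not enter the choice, and the 5 h comparison is therefore the one tested. The choice was, however, made with earlier results of these data known. MAST4 goes against the stated reason: its level at 24 h was only slightly lower after irradiation, and it is described as measured.

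The samples are blood cells irradiated with 2 Gy or left untreated, collected at 5 h and at 24 h. The 4 groups, irradiated and untreated at either time, hold 3 libraries each. Neither the animals and their age, nor the isolation of the cells, nor whether replicates are separate animals or cultures is given in the sources used here. The p-values thus cover only differences among these libraries, and that spread may be technical. The 5 h libraries held between 31059389 and 38138163 counts each, and the 24 h libraries between 18022475 and 37356501. PTPRC, the leukocyte surface protein CD45, lay between 3809 and 5809 CPM (counts scaled to a common library size) in the 12 libraries.

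The members have little in common by known function. FAM129C belongs to the niban family and in human is expressed mainly in B cells. PIK3C2B is a class II phosphoinositide 3-kinase, RAPGEF3 (EPAC1) is an exchange factor that cAMP activates to load the small GTPase RAP1 with GTP, and MAST4 is a microtubule-associated serine/threonine kinase. AMOTL1 is a junction scaffold of the angiomotin family that binds the Hippo pathway effector YAP, and CDH5, VE-cadherin, is the adhesion receptor of endothelial junctions. ABCB4 moves phosphatidylcholine across membranes and is best known from bile secretion, DSEL is an epimerase-like enzyme of dermatan sulfate synthesis, and SYBU, syntabulin, links syntaxin-bearing vesicles to the motor kinesin-1. B cells, the lymphocytes that make antibody, are known as the most radiosensitive of the common blood lymphocytes.

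The 10 genes lie on 10 different scaffolds of the July 2009 elephant assembly, so they form no cluster. FAM129C (ENSLAFG00000009366) is at scaffold 26, 24440275 to 24461383, minus strand, and PIK3C2B (ENSLAFG00000017033) at scaffold 13, 9119509 to 9173957, minus strand. AMOTL1 (ENSLAFG00000022009) is at scaffold 35, 5041699 to 5118499, plus strand, and RAPGEF3 (ENSLAFG00000014781) at scaffold 2, 33402092 to 33426994, minus strand. ABCB4 (ENSLAFG00000016072) is at scaffold 5, 61952404 to 62037807, plus strand, and MAST4 (ENSLAFG00000017222) at scaffold 7, 70532211 to 70619924, plus strand. DSEL (ENSLAFG00000027810) is at scaffold 4, 32630688 to 32634375, plus strand, SYBU (ENSLAFG00000007844) at scaffold 8, 56128125 to 56210047, minus strand, and CDH5 (ENSLAFG00000006861) at scaffold 48, 7898846 to 7922203, plus strand. The unnamed gene spans scaffold 3, 48455382 to 48646222, plus strand, and its exons add up to 85354 bp, the longest of all 16406 rows. All 10 are marked protein coding. PIK3C2B is the member that overlaps other rows, namely 2 small nucleolar RNA genes on the opposite strand.

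By 5 h after irradiation the members had split. FAM129C and SYBU fell, AMOTL1 and MAST4 rose, and the other 6 did not pass the test (edgeR's quasi-likelihood test, Benjamini-Hochberg adjusted p below 0.05). The background at 5 h was 1.60% of 12969 genes called in either direction, 0.478% lower and 1.12% higher. All 10 members passed the filter on low counts. Their median log2 fold change, irradiated over untreated, was -0.17, against -0.00 over all genes tested. Irradiated and untreated libraries of the same number deviated together at 5 h, and with the replicate number as a block 8 members were called, 5 lower and 3 higher, against 9.92% of all genes lower and 10.6% higher, 20.5% together. Without overlap between the groups were 3 members on the lower side and 2 on the higher side, against 8.43% and 10.2% of all genes. Log2 fold changes are given ± SE and levels ± SD over 3 libraries throughout.

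FAM129C held 20.8, 26.0 and 29.2 CPM in the irradiated libraries at 5 h, against 68.4, 56.4 and 63.0 CPM in the untreated ones. Every irradiated library lay below every untreated one. The mean was 25.3 ± 4.23 CPM in irradiated and 62.6 ± 6.01 CPM in untreated cells (SD, n = 3 each), and the log2 fold change was -1.32 ± 0.13 (SE, edgeR adjusted p = 0.00236). At 24 h the level was lower still, with 3.702, 3.27 and 4.97 CPM in irradiated libraries, against 46.7, 51.2 and 60.4 CPM in untreated libraries. The 24 h log2 fold change of -3.74 ± 0.17 was the 9th lowest of the 14373 genes in that fit. FAM129C thus differed between irradiated and untreated cells at both times, while its level in untreated cells was 62.6 CPM at 5 h and 52.8 CPM at 24 h.

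SYBU was the member with the lowest counts. At 5 h it had 4, 10 and 15 raw counts in the irradiated libraries, against 57, 70 and 49 counts in the untreated ones, so its value rests on few reads. These are 0.127, 0.373 and 0.461 CPM in irradiated and 2.13, 2.19 and 1.59 CPM in untreated libraries, and the groups did not overlap. SYBU had a log2 fold change of -2.62 ± 0.37 at 5 h (edgeR adjusted p = 0.0146), the 4th lowest value of all genes tested. The call was lost without irradiated replicate 2 (adjusted p = 0.0654), untreated replicate 1 (0.0668) or untreated replicate 2 (0.0605), each with edgeR. At 24 h it had 11, 8 and 5 counts in irradiated and 102, 148 and 123 counts in untreated libraries. The irradiated level was much the same at the 2 times, 0.32 ± 0.17 CPM at 5 h and 0.344 ± 0.084 CPM at 24 h, and the 24 h log2 fold change was -3.32 ± 0.31.

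AMOTL1 moved the other way first. At 5 h it held 26.6, 30.7 and 28.9 CPM in irradiated libraries, against 14.3, 16.4 and 14.5 CPM in untreated libraries. All 3 irradiated libraries were above all 3 untreated ones, and the gene rose by 0.91 ± 0.10 on the log2 scale (edgeR adjusted p = 0.00304). The irradiated libraries at 24 h held 5.84, 5.51 and 6.24 CPM, against 22.2, 19.99 and 22.9 CPM in the untreated libraries, a log2 fold change of -1.90 ± 0.11. In irradiated cells AMOTL1 therefore had its highest and its lowest group level at the 2 times, 28.7 ± 2.06 CPM at 5 h and 5.86 ± 0.37 CPM at 24 h.

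MAST4 had the largest rise of the members at 5 h. It held 21.5, 20.03 and 21.4 CPM in irradiated libraries, against 7.61, 7.58 and 8.42 CPM in untreated libraries, with no overlap. The log2 fold change was 1.40 ± 0.09 (edgeR adjusted p = 0.000262). Levels at 24 h were 7.63, 8.68 and 8.32 CPM in irradiated and 10.4, 9.85 and 9.44 CPM in untreated libraries. The 24 h log2 fold change of -0.28 ± 0.12 ranks 2786th from the lowest of 14373 genes, whereas the other 9 members rank between 9th and 159th. AMOTL1 and MAST4 are 2 of 71 genes, 0.554% of the 12814 tested at both times, whose irradiated libraries all lay above the untreated ones at 5 h and all below them at 24 h. The 24 h condition rests on the contrast that chose the members, so such shares are a description only. Asking in addition for a call at 5 h left 4 genes, or 0.0312%. The other 2, named after their values were seen, were the xylosyltransferase XYLT2 (1.01 ± 0.10 at 5 h and -0.83 ± 0.22 at 24 h) and SEL1L3 (0.59 ± 0.08 and -0.48 ± 0.11).

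**Figure D1:**
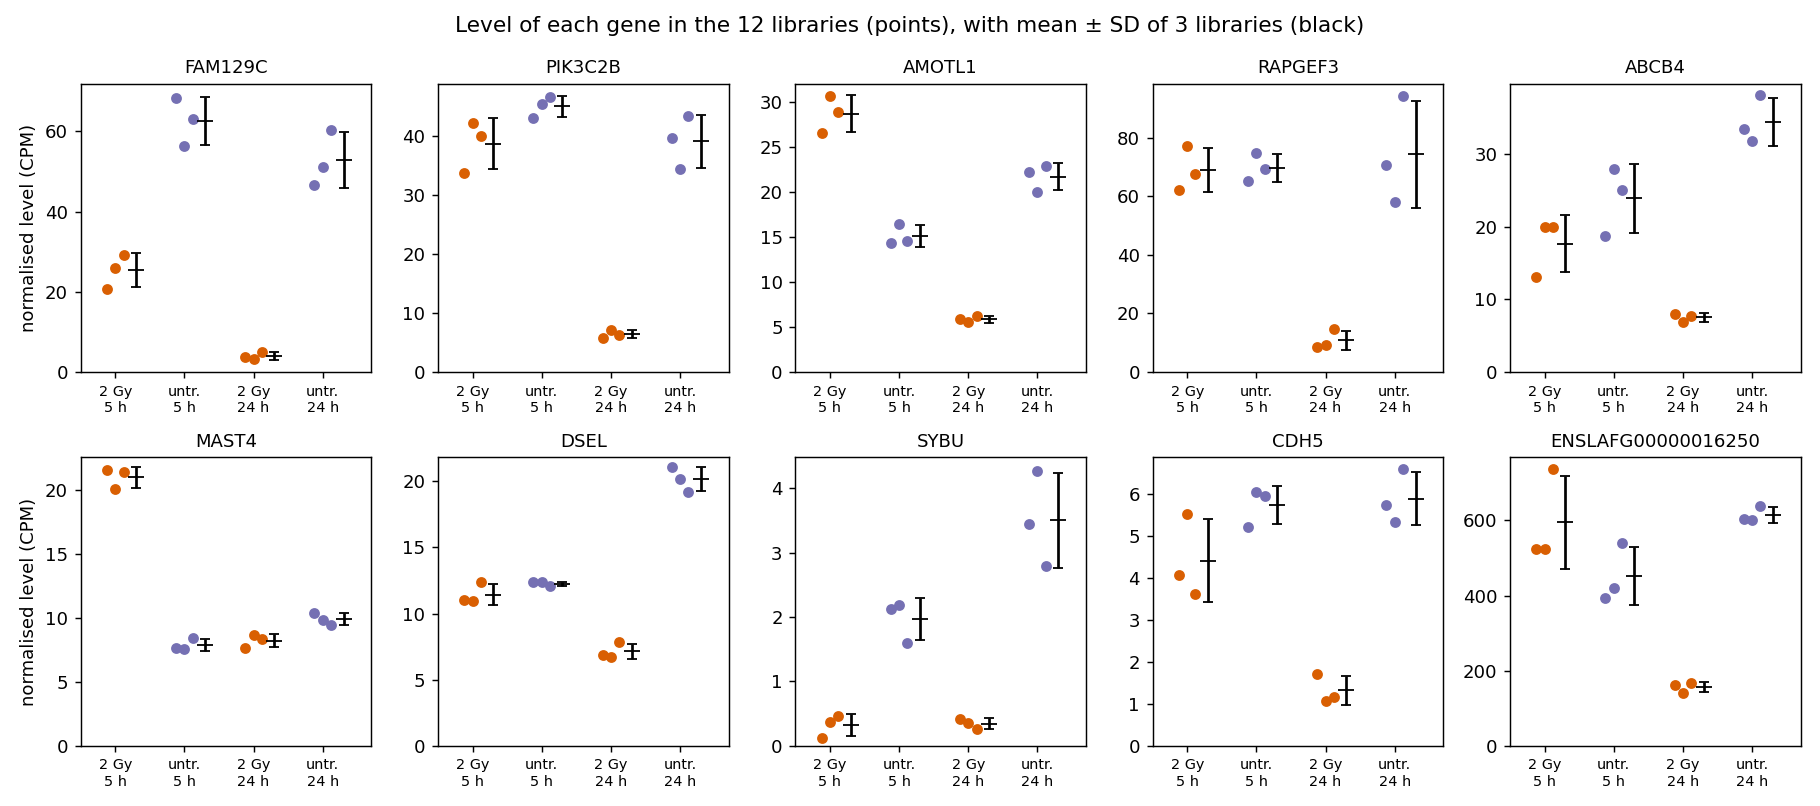
Normalised level (CPM, y axis from 0, own scale per gene) of the 10 genes in irradiated (orange) and untreated (purple) libraries at 5 h and 24 h; points are libraries and black marks are the mean ± SD of 3. MAST4 and AMOTL1 stand highest in irradiated cells at 5 h (21.0 and 28.7 CPM), and FAM129C is lower after irradiation at both times.

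PIK3C2B showed a small difference at 5 h. Its levels were 33.8, 42.2 and 40.1 CPM in irradiated libraries, against 43.0, 45.5 and 46.5 CPM in untreated libraries. The groups did not overlap, and the log2 fold change of -0.23 ± 0.09 did not pass (edgeR adjusted p = 0.352, 0.00755 with the replicate block). It held 5.80, 7.07 and 6.34 CPM in irradiated libraries at 24 h and 39.6, 34.4 and 43.3 CPM in untreated libraries (log2 fold change -2.62 ± 0.14).

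RAPGEF3 gave the value nearest to 0 at 5 h and one of the lowest at 24 h. It held 62.0, 77.1 and 67.7 CPM in irradiated libraries at 5 h, against 65.2, 74.8 and 69.3 CPM in untreated libraries. These ranges overlap almost fully, and the log2 fold change was -0.03 ± 0.10 (edgeR adjusted p = 0.933), with a sign that turns when irradiated replicate 1 or untreated replicate 2 is left out. At 24 h it held 8.59, 9.22 and 14.6 CPM in irradiated libraries, against 70.8, 58.1 and 94.1 CPM in untreated libraries. The log2 fold change at 24 h was -2.80 ± 0.25. RAPGEF3 had the widest spread relative to its mean among the untreated libraries at 24 h of the 10 members, 74.3 ± 18.3 CPM.

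ABCB4, CDH5 and DSEL were also not called at 5 h. ABCB4 held 13.2, 19.99 and 19.9 CPM in irradiated and 18.7, 28.0 and 25.1 CPM in untreated libraries, which overlap (log2 fold change -0.45 ± 0.20, edgeR adjusted p = 0.399, 0.00018 with the replicate block). CDH5 held 4.08, 5.52 and 3.62 CPM in irradiated and 5.22, 6.05 and 5.95 CPM in untreated libraries, with 1 irradiated library inside the untreated range (-0.40 ± 0.17, edgeR adjusted p = 0.389, 0.0279 with the replicate block). DSEL held 11.01, 10.9 and 12.4 CPM in irradiated and 12.3, 12.3 and 12.1 CPM in untreated libraries (-0.11 ± 0.09, edgeR adjusted p = 0.696), and the replicate block did not call it either (adjusted p = 0.395). None of the 3 passed the test in the fit without the block.

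At 24 h the same 3 genes were lower in every irradiated library. ABCB4 held 8.02, 6.89 and 7.71 CPM in irradiated libraries, against 33.5, 31.8 and 38.2 CPM in untreated libraries (log2 fold change -2.20 ± 0.12). CDH5 held 1.72, 1.07 and 1.17 CPM in irradiated libraries, against 5.75, 5.34 and 6.60 CPM in untreated libraries (-2.16 ± 0.23). DSEL held 6.87, 6.72 and 7.82 CPM in irradiated libraries, against 21.1, 20.2 and 19.2 CPM in untreated libraries (-1.51 ± 0.11). DSEL had the smallest of these differences and kept 7.13 ± 0.60 CPM in irradiated cells.

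The unnamed gene ENSLAFG00000016250 had by far the most counts of the members, between 3157 and 28050 per library, which goes with its length. At 5 h it held 523, 524 and 738 CPM in irradiated libraries, against 394, 421 and 539 CPM in untreated libraries. The groups overlap by 1 untreated library, and the log2 fold change of 0.39 ± 0.17 did not pass (edgeR adjusted p = 0.391). With the replicate block it was called higher (edgeR adjusted p = 6.85e-06). In both groups replicate 3 was the highest. At 24 h it held 163, 141 and 167 CPM in irradiated libraries, against 604, 602 and 638 CPM in untreated libraries (-1.98 ± 0.10).

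**Figure D2:**
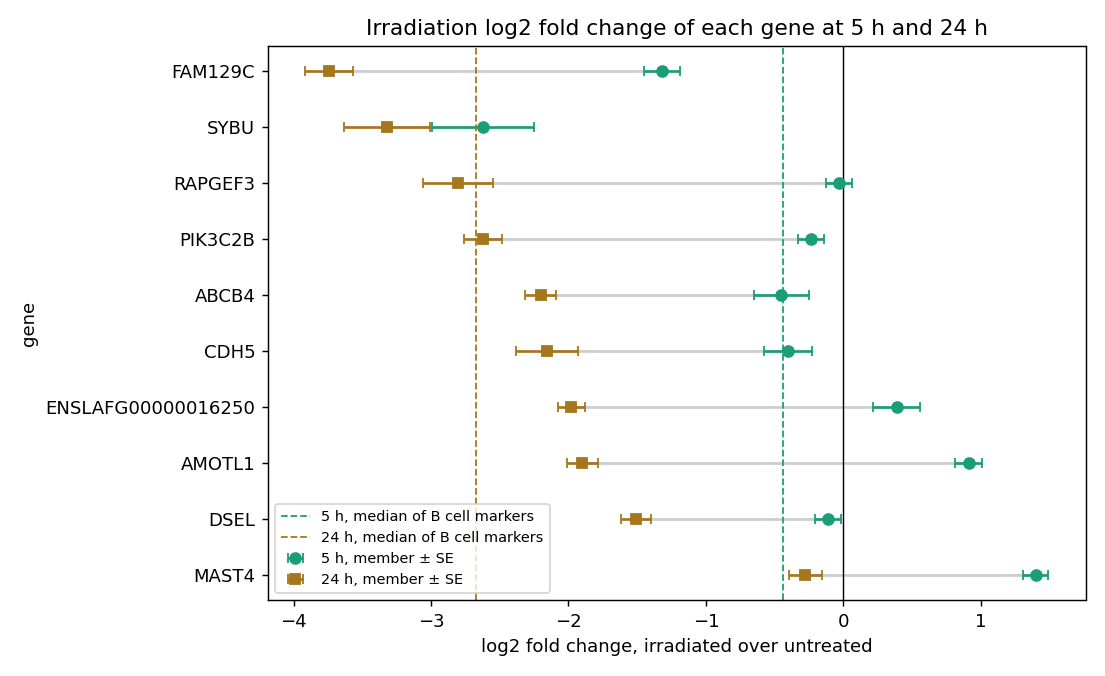
Log2 fold change, irradiated over untreated, ± SE from the edgeR fit of each time (x axis) for the 10 genes (y axis), with circles for 5 h, squares for 24 h and dashed lines for the median of the B cell markers tested. At 24 h all values are below 0, while at 5 h they run from -2.62 for SYBU to 1.40 for MAST4.

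At 24 h, the contrast that chose the members, all 10 log2 fold changes were negative and the groups did not overlap for any of them. No overlap held for 16.8% of the 14373 genes tested on the lower side and 9.42% on the higher side. The edgeR test called 4.94% lower and 1.80% higher, 6.73% together (3.35%, 1.57% and 4.92% with the replicate block). The members' median was -2.18, which is a level 4.53-fold lower, against a median of 0.01 over all genes. In these bulk samples fewer cells of a type and less RNA per cell cannot be told apart.

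Levels of different members were compared per length, as CPM per kilobase of exon. In untreated cells at 24 h FAM129C (29.8 ± 3.95) and RAPGEF3 (26.5 ± 6.52) stood highest, and their mean ± SD intervals overlap. ABCB4 (8.98 ± 0.86), PIK3C2B (7.88 ± 0.90), AMOTL1 (7.33 ± 0.51) and ENSLAFG00000016250 (7.20 ± 0.24) came next, each with an interval that overlaps that of its neighbour in the order. DSEL (5.54 ± 0.25) and CDH5 (2.59 ± 0.28) followed, each apart from its neighbours. SYBU (1.67 ± 0.35) and MAST4 (1.34 ± 0.06) were the lowest, with overlapping intervals. In irradiated cells at 24 h the order was RAPGEF3 (3.85 ± 1.17), FAM129C (2.25 ± 0.50), AMOTL1 (1.98 ± 0.12), DSEL (1.96 ± 0.16), ABCB4 (1.96 ± 0.15), ENSLAFG00000016250 (1.84 ± 0.16), PIK3C2B (1.29 ± 0.13), MAST4 (1.12 ± 0.07), CDH5 (0.58 ± 0.15) and SYBU (0.164 ± 0.040). There the neighbours from RAPGEF3 to ENSLAFG00000016250 overlap, as do PIK3C2B and MAST4, and the other steps are apart.

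Untreated cells also differed between the times, given here as values only because the untreated 24 h libraries entered the choice of the genes. On the log2 scale, 24 h minus 5 h, untreated cells were higher by 0.80 for SYBU, 0.71 for DSEL, 0.54 for ABCB4, 0.52 for AMOTL1, 0.46 for ENSLAFG00000016250 and 0.33 for MAST4. The differences were 0.07 for RAPGEF3, 0.04 for CDH5, -0.21 for PIK3C2B and -0.25 for FAM129C, and the median over 11803 genes was -0.03. In irradiated cells the same difference ran from -2.70 for RAPGEF3 to -0.68 for DSEL in 9 members, and was 0.19 for SYBU.

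Since the members were picked beside B cells, each was set against a list of B cell markers. Of 17 such markers tested at 24 h, 14 fell and 0 rose, with a median log2 fold change of -2.67, and their summed level was 334 to 817 CPM in irradiated and 926 to 1493 CPM in untreated libraries. Much of that sum was FCER2 (265 ± 224 CPM in irradiated and 482.5 ± 325 CPM in untreated cells), which was not called (edgeR adjusted p = 0.505). CD72 and CD40, also in the sum, were not called either. MS4A1, the surface protein CD20, averaged 5.07 ± 1.11 CPM in irradiated and 82.3 ± 7.83 CPM in untreated cells at 24 h (log2 fold change -4.04 ± 0.18, edgeR adjusted p = 0.000171). At 5 h 2 of 18 fell, 14 with the replicate block and 7 with DESeq2, with a median of -0.44. All 18 values were negative, and 11 were lower at an unadjusted p below 0.05. For 11 the groups did not overlap on the lower side, against 8.43% of all genes. The 2 called by edgeR without the block were the Fc receptor-like protein FCRL1 (-0.68 ± 0.12, edgeR adjusted p = 0.035) and the adaptor BLNK (-0.72 ± 0.12, 0.0354).

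Each member's log2 CPM was also taken minus the mean log2 CPM of 17 B cell markers, which compares it with their average. The markers did not move alike: their 24 h log2 fold changes ran from -4.18 ± 0.24 for CR2 to 0.20 ± 0.10 for CD72. The comparison therefore depends on which markers enter the mean. The marker mean itself was 3.91 ± 0.25 in irradiated and 4.38 ± 0.15 in untreated cells at 5 h, and 2.53 ± 0.05 in irradiated and 4.83 ± 0.02 in untreated cells at 24 h. ABCB4 and CDH5 stayed closest to it: irradiated minus untreated, their relative level differed by 0.04 and 0.08 at 5 h and by 0.12 and 0.17 at 24 h. The relative level of FAM129C, irradiated minus untreated, differed by -0.84 at 5 h and by -1.42 at 24 h, and that of SYBU by -2.03 at 5 h and by -0.82 at 24 h. For PIK3C2B and RAPGEF3 the difference was above 0 at 5 h (0.25 and 0.45) and below 0 at 24 h (-0.29 and -0.49). The irradiated and untreated libraries overlapped at 24 h for both. PIK3C2B had 0.16 ± 0.17 in irradiated and 0.45 ± 0.16 in untreated libraries, and RAPGEF3 0.87 ± 0.37 and 1.36 ± 0.34. AMOTL1 (1.40 and 0.43), ENSLAFG00000016250 (0.87 and 0.33), DSEL (0.37 and 0.81) and MAST4 (1.88 and 2.04) had differences above 0 at 5 h and at 24 h.

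**Figure D3:**
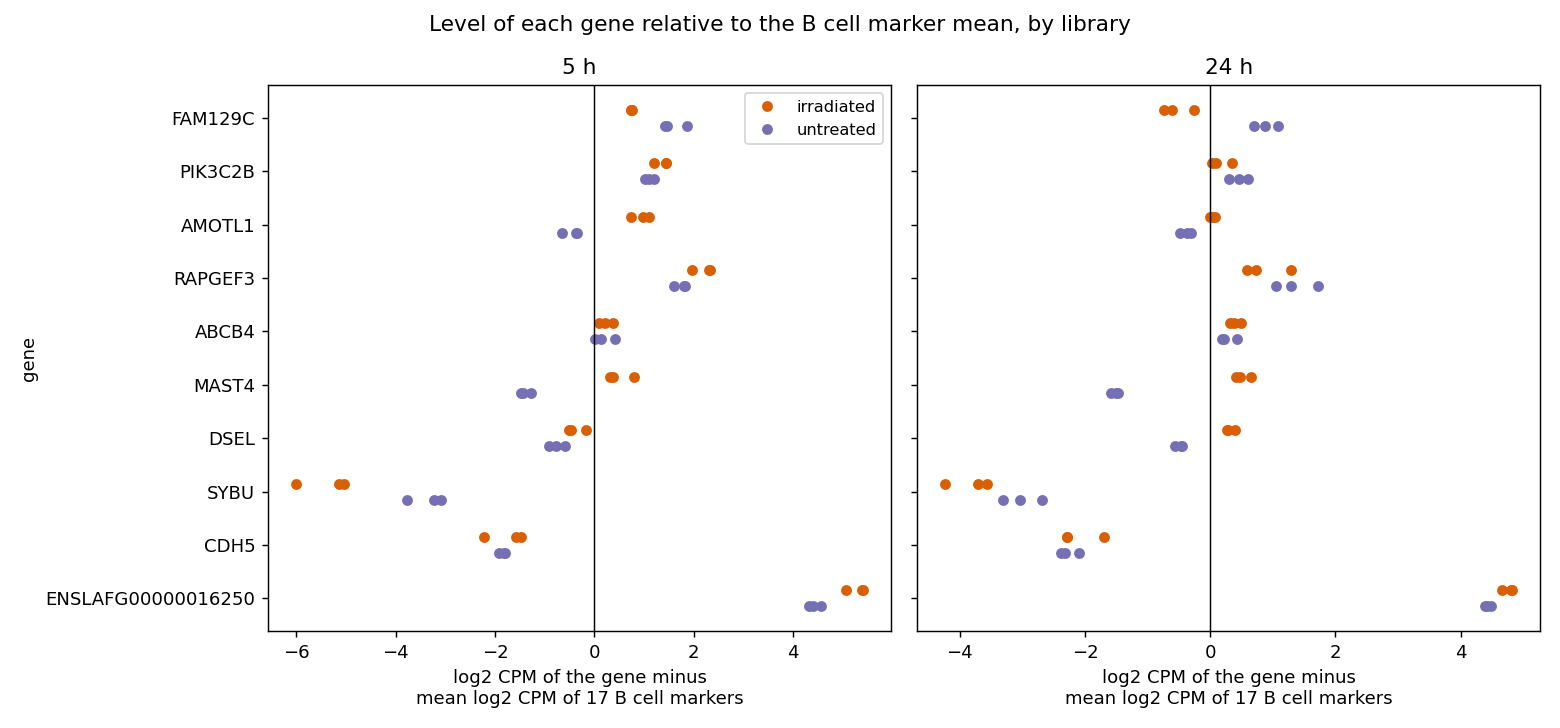
Log2 CPM of each gene minus the mean log2 CPM of 17 B cell markers (x axis) in each irradiated (orange) and untreated (purple) library, at 5 h on the left and 24 h on the right. ABCB4 and CDH5 lie at about the same place in both groups, MAST4 lies to the right after irradiation at both times, and FAM129C lies to the left.

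Markers of other blood cells moved at 24 h too, and their part in the members' values was not tested. Over all genes tested at 24 h, edgeR called 4.94% lower and 1.80% higher. Of 10 NK and cytotoxic markers 7 fell (median -1.09), and their summed level was 175 to 254 CPM in irradiated and 450 to 511 CPM in untreated libraries. Of 9 plasmacytoid dendritic cell markers 4 fell and 0 rose (median -0.01), with sums of 468 to 566 CPM in irradiated and 533 to 638 CPM in untreated libraries. TCF4, PLD4, BCL11A and CCDC50 fell. The others were not called: SLC15A4 (0.28 ± 0.25), RUNX2 (0.19 ± 0.18), IL3RA (0.18 ± 0.12), IRF7 (0.16 ± 0.26) and TLR7 (-0.01 ± 0.14). The plasmacytoid list thus did not move as a whole. Of 9 conventional dendritic cell markers 3 fell (median -0.07, sums 430 to 528 CPM in irradiated and 583 to 740 CPM in untreated libraries). Of 19 T cell markers 5 fell (median -0.42, sums 963 to 1129 CPM in irradiated and 1226 to 1591 CPM in untreated libraries). Of 8 monocyte and macrophage markers 3 rose (median 1.23, sums 5586 to 6888 CPM in irradiated and 3210 to 3854 CPM in untreated libraries), and of 6 platelet markers 3 rose (median 0.88, sums 107 to 135 CPM in irradiated and 50.3 to 65.7 CPM in untreated libraries). Plasma cell (0 of 6) and erythroid markers (0 of 4) were not called by edgeR. At an unadjusted p below 0.05 they gave 1 and 2 higher, and DESeq2 called 1 of each, also higher.

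At 5 h the median log2 fold change was -0.24 for plasmacytoid and -0.54 for conventional dendritic cell markers, -0.25 for T cell, -0.39 for NK, 0.66 for monocyte and 0.21 for platelet markers. Of 9 plasmacytoid dendritic cell markers 2 fell (5 with the replicate block), TCF4 (-0.81 ± 0.13) and PLD4 (-0.64 ± 0.11). Of 9 conventional dendritic cell markers 1 fell (6 with the block), the transcription factor IRF8 (-0.98 ± 0.10, edgeR adjusted p = 0.00236). Of 8 monocyte markers 2 rose (7 higher and 1 lower with the block), ITGAM (0.84 ± 0.12) and S100A9 (0.83 ± 0.13). Of 6 platelet markers 1 rose, GP9 (2.50 ± 0.27). Plasma cell (0 of 5) and erythroid markers (0 of 4) were called neither by edgeR without the block nor by DESeq2, with 1 and 0 lower at an unadjusted p below 0.05. With the block 1 plasma cell marker was lower, MZB1 (-0.70 ± 0.19 without the block, edgeR adjusted p = 0.00204 with it), and 0 erythroid markers were called. T cell and NK markers were not called at 5 h by edgeR, against 10 of 19 and 8 of 10 lower with the block and 1 lower in each list by DESeq2. At an unadjusted p below 0.05 edgeR gave 2 T cell markers lower, and 4 NK markers lower with 1 higher.

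CDH5 was the member that is a known marker of another cell type. Of 14 other endothelial genes tested at 24 h, 4 had a negative log2 fold change, none of them called, and 1 rose, VWF (21.1 ± 4.26 CPM in irradiated and 12.4 ± 2.17 CPM in untreated cells, log2 fold change 0.76 ± 0.17, edgeR adjusted p = 0.048). Their median log2 fold change was 0.51, against -2.16 for CDH5. Their summed level, most of it PECAM1, was 850 to 988 CPM in irradiated and 814 to 1036 CPM in untreated libraries. The endothelial receptors KDR (1.19 ± 0.26 CPM in irradiated and 0.79 ± 0.66 CPM in untreated cells) and TEK (1.08 ± 0.58 and 0.67 ± 0.52 CPM) were near the detection limit. MMRN2, PLVAP, ROBO4, ERG, CLDN5, TIE1 and FLT4 also averaged at most 2.36 CPM in either group at 24 h. The median of 0.51 therefore rests largely on low counts, and its difference from CDH5 was not tested. At 5 h 0 of 10 endothelial genes were called by edgeR (1 higher and 2 lower at an unadjusted p below 0.05, 1 higher by DESeq2, 2 higher and 3 lower with the block).

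The closest paralogues of the members were looked up by name in a list of 20, all with a row. At 5 h edgeR called 0 of 14 tested (4 lower with the replicate block, 1 lower with DESeq2, 2 lower at unadjusted p below 0.05). At 24 h edgeR called 1 of 18, lower, near the 4.94% of all genes called lower. It was DSE, the paralogue of DSEL. DESeq2 called 3 lower, and 3 were lower at an unadjusted p below 0.05. The replicate block called 1 lower, which was CDH1 and not DSE. The median log2 fold change of the paralogues was -0.15 at 5 h and -0.01 at 24 h.

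In the niban family the paralogues FAM129A (23.7 ± 2.22 CPM in irradiated and 23.9 ± 2.34 CPM in untreated cells) and FAM129B (86.5 ± 12.3 and 88.0 ± 13.04 CPM) had 24 h log2 fold changes of -0.02 ± 0.11 and -0.03 ± 0.14, against -3.74 for FAM129C. PIK3C2A, the other class II kinase with a substantial level, averaged 135 ± 6.18 CPM in irradiated and 149 ± 3.07 CPM in untreated cells at 24 h (-0.15 ± 0.09), against -2.62 for PIK3C2B. AMOT and AMOTL2 (-0.17 ± 0.27 and 0.06 ± 0.37) were at 1.02 to 3.60 CPM on average, and RAPGEF4, the other cAMP-activated RAP1 exchange factor, at 3.44 ± 1.13 CPM in irradiated and 3.04 ± 1.18 CPM in untreated cells (0.18 ± 0.36). ABCB1, the drug efflux pump, was at 1.73 ± 0.70 CPM in irradiated and 1.73 ± 0.88 CPM in untreated cells (0.01 ± 0.46). None of these was called, and the differences between member and paralogue were not tested.

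The paralogues with the lowest 24 h values belonged to DSEL, CDH5, MAST4 and SYBU. DSE fell (log2 fold change -0.49 ± 0.09, 56.3 ± 4.38 CPM in irradiated and 78.6 ± 3.48 CPM in untreated cells, edgeR adjusted p = 0.0204). The replicate block did not call it (edgeR adjusted p = 0.0531). CDH1, E-cadherin, had 1.10 ± 0.32 CPM in irradiated and 2.82 ± 0.66 CPM in untreated cells and just missed the threshold (-1.35 ± 0.32, edgeR adjusted p = 0.0502). It was called lower with the replicate block (edgeR adjusted p = 0.0429) and by DESeq2 (adjusted p = 0.00552). MAST3 had 19.9 ± 2.40 CPM in irradiated and 31.3 ± 8.64 CPM in untreated cells (-0.67 ± 0.19, edgeR adjusted p = 0.0938, DESeq2 adjusted p = 0.0309). SNPH had a log2 fold change of -0.65 ± 0.39 (edgeR adjusted p = 0.395). MAST2, at 34.7 ± 2.59 CPM in irradiated and 34.0 ± 2.08 CPM in untreated cells, had 0.02 ± 0.09.

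**Figure D4:**
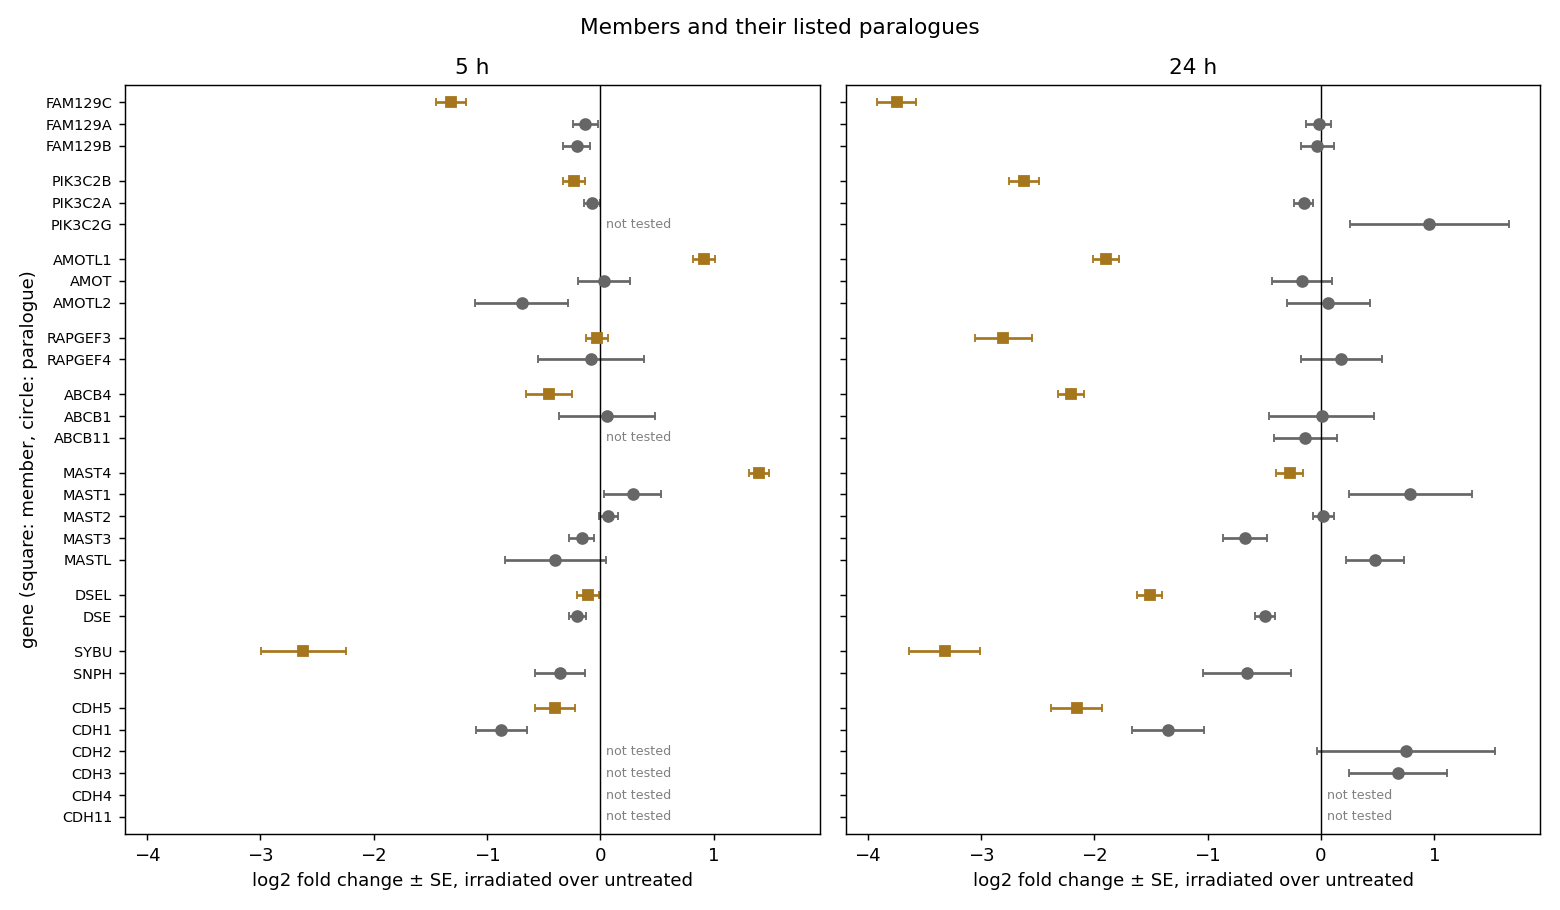
Log2 fold change ± SE, irradiated over untreated (x axis), of the 9 named members (squares) and their listed paralogues (circles) at 5 h on the left and 24 h on the right; genes that failed the low-count filter are marked as not tested. At 24 h FAM129A and FAM129B lie at -0.02 and -0.03 while FAM129C lies at -3.74.

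Other genes of the members' pathways were also taken from lists. Over all genes tested, edgeR called 4.94% lower and 1.80% higher at 24 h, and 0.478% lower and 1.12% higher at 5 h. List counts near these shares say nothing about a pathway. Of 27 genes of cAMP and RAP1 signalling tested at 24 h 4 fell and 0 rose (median -0.08). They were RASGRP2, a RAP1 exchange factor of leukocytes and platelets (27.7 ± 9.33 CPM in irradiated and 120 ± 15.2 CPM in untreated cells, log2 fold change -2.13 ± 0.26, edgeR adjusted p = 0.00535), the RAP GTPase-activating protein SIPA1L2 (-1.25 ± 0.16), the protein kinase A subunit PRKAR1B (-1.54 ± 0.25) and the cAMP phosphodiesterase PDE7A (-0.51 ± 0.11). At 5 h 1 of the 27 fell, RASGRP2 (-0.61 ± 0.10, edgeR adjusted p = 0.0246), and with the replicate block 7 were lower and 2 higher.

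Among PI3K enzymes and phosphatases 2 of 23 fell and 1 rose at 24 h (median -0.10): AKT1 (-0.41 ± 0.08), PIK3C3 (-0.34 ± 0.08) and PIK3R6 (0.72 ± 0.17), the last a regulatory subunit. At 5 h 0 of 22 were called by edgeR (1 higher and 3 lower with the block, 1 lower with DESeq2, 1 each way at unadjusted p below 0.05). PIK3CD, the catalytic subunit known for its role in lymphocytes, had -0.28 ± 0.07 at 5 h (edgeR adjusted p = 0.116, 0.000194 with the block). Of the angiomotin and Hippo genes 0 of 15 at 5 h and 0 of 17 at 24 h were called by edgeR or DESeq2, with 2 higher at 5 h and 1 higher and 2 lower at 24 h at an unadjusted p below 0.05. The block called 2 of the 15 higher at 5 h.

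Chondroitin and dermatan sulfate genes held the largest rise of the pathway lists at 5 h. CHST14, the sulfotransferase of dermatan sulfate, rose (30.6 ± 7.10 CPM in irradiated and 4.77 ± 0.68 CPM in untreated cells, log2 fold change 2.66 ± 0.20, edgeR adjusted p = 0.000468), as did XYLT2 (1.01 ± 0.10, 0.00235), 2 of 17 tested. None of the 17 was called lower by edgeR or DESeq2, while 2 were lower at an unadjusted p below 0.05 and the replicate block called 3 lower, DSE, UST and B3GAT3, and 2 higher. The median of the list at 5 h was -0.07. At 24 h 1 of 17 rose and 3 fell: CHST14 was higher (1.29 ± 0.14, edgeR adjusted p = 0.00313), and DSE, the sulfotransferase UST (-1.58 ± 0.28) and CHST3 (-1.68 ± 0.39) were lower. Of the lipid flippases and ABCB transporters 2 of 15 fell at 24 h, ATP8B2 (-1.13 ± 0.11) and ATP8B1 (3.11 ± 1.31 CPM in irradiated and 26.8 ± 13.3 CPM in untreated cells, -3.14 ± 0.42, edgeR adjusted p = 0.00791), the second named after its values were seen. Of the kinesin-1 and vesicle transport genes 1 of 15 fell at 24 h, near the 4.94% of all genes called lower. It was the motor KIF5C (-1.05 ± 0.17, edgeR adjusted p = 0.0138), also named after its values were seen. At 5 h neither of these lists had a call by edgeR, 0 of 14 and 0 of 15. There, 1 gene in each was lower at an unadjusted p below 0.05, DESeq2 called 1 and 0 lower, and the block called 3 lower with 1 higher and 1 lower.

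Only some of the members' neighbours on the scaffolds are given here, beside FAM129C, ABCB4, MAST4 and SYBU, named after their values were seen. PGLS, 3810 bp from FAM129C on the same strand, had log2 fold changes of -0.09 ± 0.09 at 5 h and -0.14 ± 0.11 at 24 h. ABCB1 is 30952 bp from ABCB4 on the same strand and is described above. CROT, 4221 bp from ABCB4 on the other strand, had -0.84 ± 0.33 at 24 h (edgeR adjusted p = 0.197). CD180, a B cell and myeloid surface protein, lies 37650 bp from MAST4 on the other strand and had 0.08 ± 0.08 at 5 h and 0.43 ± 0.17 at 24 h (edgeR adjusted p = 0.208). EBAG9, 17733 bp from SYBU, had 0.06 ± 0.07 and -0.12 ± 0.10.

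The genes most like each member were found by Pearson correlation of log2 CPM over the 12 libraries among 10387 named genes. The correlations are a description: all points share the same libraries, groups and times. The members were chosen on the 24 h libraries among them, so high values with genes that fell at 24 h follow in part from that choice. Genes like FAM129C included FGD2 (r = 0.979) and CD79B (0.977), the second a component of the B cell receptor. PIK3C2B was most like SFMBT1 (0.993), MEF2C (0.987) and the complement receptor CR2 (0.986), and RAPGEF3 most like NUP210 (0.985), ELL3 (0.984) and the B cell transcription factor PAX5 (0.983). For ABCB4 they were the lymphocyte receptor BTLA (0.991), MLF1 (0.988) and HLA-DOA (0.987), for CDH5 ALDH18A1 (0.979), CR2 (0.978) and BCL11A (0.974), and for DSEL TRIM38 (0.971), BTLA (0.962) and DENND5B (0.962).

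AMOTL1 and ENSLAFG00000016250 had the same nearest gene, SETBP1 (0.982 and 0.965), and correlated with each other at 0.951. SETBP1 had a log2 fold change of 0.36 ± 0.12 at 5 h (edgeR adjusted p = 0.239) and fell at 24 h (-1.13 ± 0.13, 0.00393). The next for AMOTL1 were FAM58A (0.922) and DCLRE1C (0.921), and for the unnamed gene RRAS2 (0.956) and ELL3 (0.956). SYBU was nearest to ATP5G3 (0.956), CD160 (0.942) and CD27 (0.94), the last a lymphocyte receptor and CD160 a receptor of NK and T cells. MAST4 had no gene above 0.9: its nearest were TMEM158 (0.898), SPAG1 (0.893) and F11R (0.882).

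Among the 45 pairs of members the correlation over the 12 libraries had a median of 0.821. High values between members, and with the B cell markers, follow in part from the choice on the 24 h libraries and are no support. The 36 pairs without MAST4 ran from 0.264, for AMOTL1 with SYBU, to 0.983, for PIK3C2B with RAPGEF3. The 9 pairs with MAST4 ran from -0.482, with SYBU, to 0.679, with AMOTL1. With the mean of the B cell markers, correlations over the same libraries were highest for ABCB4 (0.987), FAM129C (0.962), CDH5 (0.942) and DSEL (0.941), lower for PIK3C2B (0.918), RAPGEF3 (0.916), ENSLAFG00000016250 (0.907), AMOTL1 (0.786) and SYBU (0.785), and 0.106 for MAST4.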

How the data were processed

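Total RNA of 12 blood libraries was column-purified, depleted of ribosomal RNA and made into stranded libraries, per the labels' protocols. The authors deposited 1 table per time point with whole-number read counts per Ensembl gene, per the file headers. Aligner, counting program and use of strand: not given in the sources used here. In the authors' deposited log2 ratio a positive value means higher in untreated cells, and a splicing log2 ratio stands beside it. The deposited length in base pairs gave CPM per kilobase. Another 24 columns of regularized log and FPKM values were not used here.

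Counts were fitted per time point with edgeR 4.0.16 in R 4.3.3 (TMM scaling, filterByExpr, quasi-likelihood F test, Benjamini-Hochberg adjustment over all genes). Standard errors come from the F statistic. CPM values are scaled by TMM over all 12 libraries, and log2 CPM use a prior count of 2. At 5 h, deviations of same-numbered irradiated and untreated libraries correlated at 0.571, 0.568 and 0.729 over 11370 genes. The main fit had no block, and a fit with the replicate number as a block is given beside it. No 2 replicates agreed within sampling noise. DESeq2 1.42.0, other filters and scalings, a joint fit and leaving out libraries were alternatives. The edgeR script was tested on simulated data.

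The members and lists were chosen with earlier results of these data known. The text names all 10 members, the 3 genes most like each (1 of those for FAM129C is not reported here), and up to 4 genes per list with the smallest p at 5 h. It also names genes called at 24 h, MS4A1, some endothelial genes and paralogues, and neighbouring genes, all chosen after their values were seen.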

Additional observations from a re-analysis of the deposited data

Results flagged for a closer look

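AMOTL1 and MAST4 had irradiation log2 fold changes of opposite sign at the 2 times. Every irradiated library lay above every untreated one at 5 h and below every untreated one at 24 h. Over all genes tested, the first held for 10.2% and the second for 16.8%. For MAST4 the 24 h value was small, -0.28 ± 0.12, against 1.40 ± 0.09 at 5 h. For AMOTL1 the values were -1.90 ± 0.11 and 0.91 ± 0.10. The log2 fold change at 24 h minus that at 5 h was -2.81 for AMOTL1 and -1.68 for MAST4. The difference itself was not tested, since the 24 h values entered the choice of the genes. MAST4 averaged 21.0 ± 0.82 CPM (SD, n = 3) in irradiated cells at 5 h, and the other 3 groups had means between 7.87 and 9.88 CPM.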

How the results depend on the processing

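The count of members called at 5 h was 4. It was 8 with the replicate block and 3 to 4 when each library was left out in turn. With a mean of at least 1 CPM as the filter SYBU was not tested. The members' median log2 fold change at 24 h ranged from -2.34 to -2.10 without single libraries and kept its sign in every alternative. For RAPGEF3 at 5 h, leaving out libraries gave -0.115 to 0.0403, above 0 without irradiated replicate 1 (0.0403) or untreated replicate 2 (0.0286). The block raised PIK3C2B, ABCB4, CDH5 and ENSLAFG00000016250 past the threshold and changed no other member's call. Genes of the 17 lists called at 5 h numbered 11, against 27 with DESeq2, 86 with the replicate block and 4 to 15 without single libraries. At 24 h the replicate numbers did not pair the libraries (same-number correlations -0.033, -0.506 and 0.742), and irradiated replicates 1 and 2 correlated best with untreated replicates 2 and 1 (0.723 and 0.449). The block gave 707 calls over all genes at 24 h, against 968 without it. Depth limits SYBU most, with 4 to 15 counts per irradiated library.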

Other observations

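The authors' deposited table holds a splicing log2 ratio for some genes, reported as deposited because no source used here defines it. At 24 h it differs from 0 in 490 of 16406 rows, and the 2 lowest values belong to RAPGEF3 (-2.96, at scaffold 2, 33417268 to 33417310) and ENSLAFG00000016250 (-2.87, at scaffold 3, 48494996 to 48495080). Both intervals lie inside the genes' own coordinates. At 5 h the authors' deposited table gives ENSLAFG00000016250 -1.19, at another interval (scaffold 3, 48535672 to 48535724), and RAPGEF3 0. FAM129C has 1.23 at 5 h and 1.07 at 24 h in the authors' deposited table, again at different intervals. The other 7 members are listed at 0 at both times.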
